A study of Homo sapiens with 18 samples.

Results

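The alpha and beta tubulins are represented here by 10 genes, the beta tubulins TUBB, TUBB2A, TUBB2B, TUBB3, TUBB4B and TUBB6 and the alpha tubulins TUBA1A, TUBA1B, TUBA1C and TUBA4A. They were taken as every non-control spot whose gene name on the array is one of these symbols, which gave 16 probes, 1 spot each, among the 50599 probes and 36204 gene names of the array. All 10 genes were measured on all 18 arrays. Each array held labelled RNA of HT29, a human colorectal cancer cell line sensitive to the platinum drug oxaliplatin (OXA), or of HTOXAR3, a subline made OXA-resistant by long culture with rising OXA doses. Each line was left without drug (untreated), treated with OXA, or treated with OXA together with Curcumin, the yellow polyphenol of turmeric, with 3 biological replicates in each of the 6 groups. Treatment lasted 24 h. The OXA dose was 10 µM in HT29 and 30 µM in HTOXAR3, and the Curcumin dose was 10 µM in both lines. None of the 18 arrays held RNA of cells given Curcumin alone. HTOXAR3 is 1 resistant subline, so a difference between the lines is a difference between this subline and its parent, and a difference between the lines after treatment also compares unlike OXA doses.

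Alpha and beta tubulin form the heterodimer that polymerises into microtubules, the filaments of the mitotic spindle, of vesicle transport and of cilia. Each subunit is encoded by several genes, whose products (isotypes) differ mainly in their acidic C-terminal tails, where microtubule-associated proteins and modifying enzymes act. Cells also regulate tubulin mRNAs by the amount of free tubulin: when soluble dimer is plentiful, the mRNAs being translated are degraded. In epithelial cells most beta tubulin comes from TUBB and TUBB4B, while TUBB3, the class III isotype, is normally made chiefly in neurons and has been studied in tumours for its link with resistance to taxanes. The study asked which genes differ with acquired OXA resistance and which respond differently to the combined treatment in the 2 lines.

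The signal stood well above background, by the scanner software's own mark, for 52.4% to 63.6% of the spots of an array, and 9 of 12 epithelial marker genes were well above background on all 18 arrays and 0 of 6 fibroblast markers. The other 3 epithelial markers, CDX2, GPA33 and CEACAM5, were so on 10, 9 and 16 arrays, and of the fibroblast markers COL1A1 on 10, LUM on 5, DCN and PDGFRB on 1 each and COL1A2 and COL3A1 on 0. Marks of this kind were also given on all 18 arrays to 4 of 5 leukocyte, 2 of 3 endothelial and 2 of 5 neuronal markers, and their part in the tubulin values was not tested. Of the 10 tubulins, 8 were well above background on all 18 arrays, TUBB6 on 15 and TUBB2B on 14. No tubulin spot was saturated or marked as an outlier. In bulk RNA, fewer cells with a transcript and less of it per cell cannot be told apart.

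The values of a gene are those of its brightest probe, and levels of different probes cannot be set against each other. The brightest probes lie, in the array's GRCh37 annotation, at chr6:30691905-30691964 for TUBB, chr6:3154035-3154094 for TUBB2A, chr6:3224751-3224810 for TUBB2B, chr16:90002437-90002496 for TUBB3, chr9:140137646-140137705 for TUBB4B and chr18:12326476-12326535 for TUBB6. Those of the alpha tubulins other than TUBA1A lie at chr12:49521633-49521692 for TUBA1B, chr12:49667030-49667089 for TUBA1C and chr2:220115070-220115129 for TUBA4A. TUBB2A and TUBB2B are neighbours on the minus strand of chromosome 6, and TUBA1A, TUBA1B and TUBA1C lie together on chromosome 12. Tubulin genes share long stretches of coding sequence, so a probe in such a stretch can also bind the transcript of a relative. The brightest TUBA4A probe holds the end of the reading frame, shown with the stop codon in capitals after 17 codons that are open in the same frame, and the brightest TUBB probe is given beside it because the TUBB probes gave unlike values:
TUBA4A probe 1: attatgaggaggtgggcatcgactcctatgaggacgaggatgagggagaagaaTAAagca
TUBB probe 1: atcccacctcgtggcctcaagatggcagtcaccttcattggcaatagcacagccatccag
Binding to the full transcripts of related genes was not analysed here.

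The 250 bases before the start of the neighbouring genes TUBB2A and TUBB2B, which by their brightest probes moved in opposite directions when Curcumin was added to OXA in HTOXAR3, are printed from RefSeq (GRCh38.p14, minus strand, TUBB2A chr6:3157545-3157794 and TUBB2B chr6:3227654-3227903), together with those of TUBB4B (plus strand, chr9:137241037-137241286), the gene that fell in both lines under both treatments. Capitals mark TATAAA and CCAAT, the latter also as its reverse complement ATTGG:
TUBB2A: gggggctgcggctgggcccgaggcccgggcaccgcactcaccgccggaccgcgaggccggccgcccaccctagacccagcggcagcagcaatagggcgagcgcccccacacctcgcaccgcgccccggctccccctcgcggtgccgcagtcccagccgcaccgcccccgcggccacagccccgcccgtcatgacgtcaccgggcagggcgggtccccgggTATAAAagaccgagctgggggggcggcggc
TUBB2B: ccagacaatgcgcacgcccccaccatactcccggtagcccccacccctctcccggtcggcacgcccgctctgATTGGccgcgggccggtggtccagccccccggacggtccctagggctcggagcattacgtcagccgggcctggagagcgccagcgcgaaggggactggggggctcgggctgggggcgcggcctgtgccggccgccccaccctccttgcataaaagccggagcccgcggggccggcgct
TUBB4B: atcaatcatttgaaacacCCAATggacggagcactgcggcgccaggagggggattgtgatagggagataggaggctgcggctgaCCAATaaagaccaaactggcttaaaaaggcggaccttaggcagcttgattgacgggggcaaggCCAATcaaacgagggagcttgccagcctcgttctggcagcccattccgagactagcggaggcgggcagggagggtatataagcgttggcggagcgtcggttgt
TATAAA stood once in the TUBB2A window and, of all 35116 promoter windows searched on both strands, 10.7% hold it. CCAAT stood once in the TUBB2B window and 3 times in that of TUBB4B, and 32% of all windows hold it. The GC box GGGCGG stood 5 times in the window of TUBB2A and once in that of TUBB2B, was not found in that of TUBB4B, and is held by 42.6% of all windows.

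**Figure D1:**
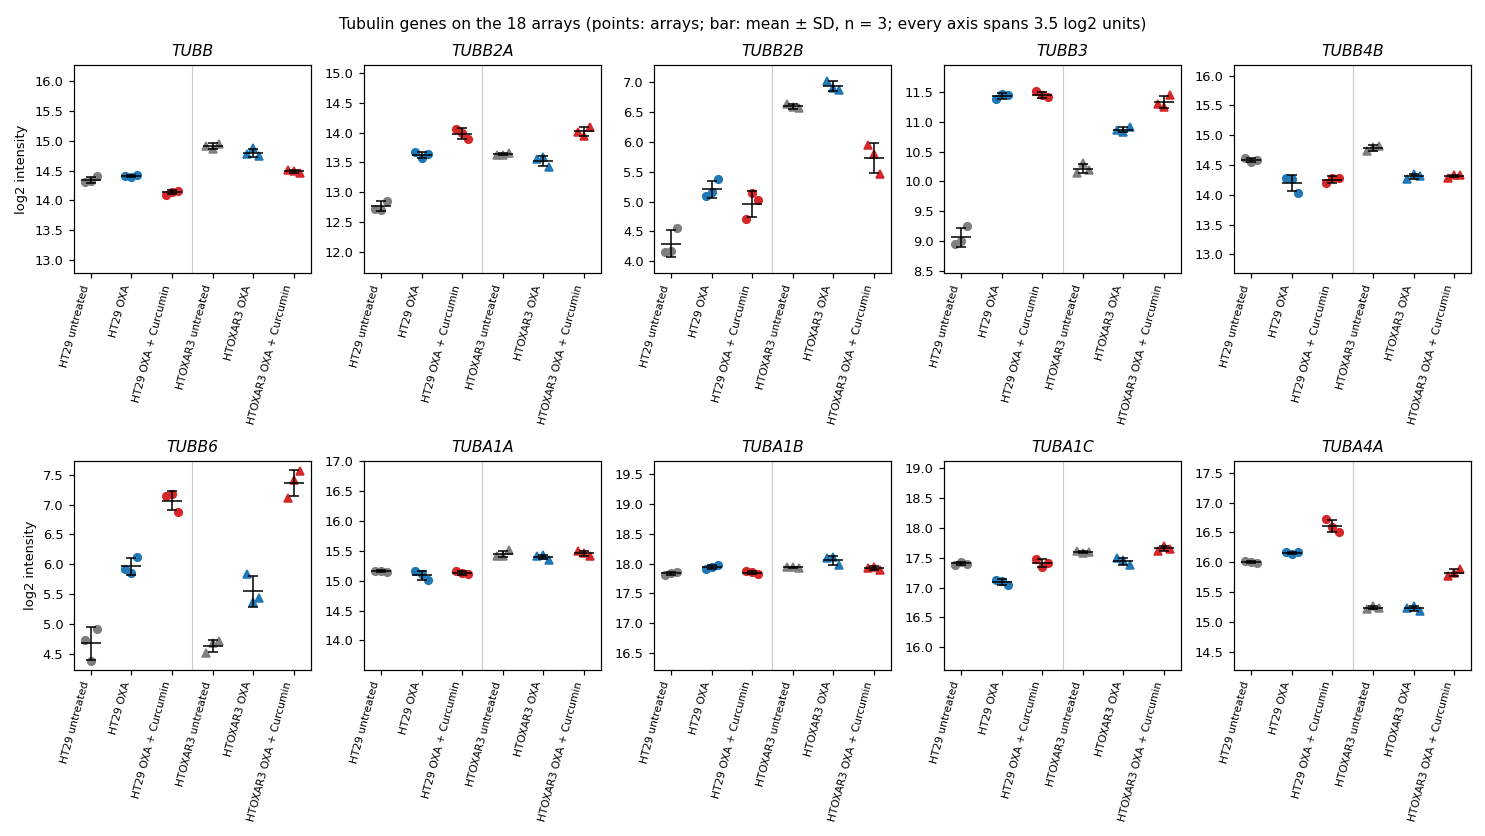
Log2 intensity of the brightest probe of each tubulin gene on the 18 arrays, by cell line and treatment, with each point an array and the bar giving the mean ± SD (n = 3). Every axis spans 3.5 log2 units but starts at its own level, and TUBB3, TUBB6 and TUBB2B cover the widest range while TUBA1B stays within 0.23 log2 units from its lowest to its highest group mean. TUBB2B was not well above background in untreated HT29.

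TUBB3 started higher in the resistant line and rose with OXA in both lines, more so in HT29. Its log2 intensity was 8.95, 9.00 and 9.25 in untreated HT29 and 10.15, 10.30 and 10.19 in untreated HTOXAR3. All 3 untreated HTOXAR3 arrays were above all 3 of HT29, a difference of 1.15 ± 0.080 on the log2 scale (SE, 2.22-fold, limma, Benjamini-Yekutieli adjusted p = 1.28e-06). After OXA the values were 11.38, 11.47 and 11.45 in HT29 and 10.86, 10.83 and 10.91 in HTOXAR3. OXA thus raised TUBB3 in both lines, by 2.37 ± 0.080 in HT29 (5.17-fold, adjusted p = 1.12e-09) and by 0.65 ± 0.080 in HTOXAR3 (1.57-fold, adjusted p = 0.000542), and the treated HT29 arrays lay above the treated HTOXAR3 arrays although the untreated ones lay below. With OXA and Curcumin together the log2 intensity was 11.51, 11.44 and 11.41 in HT29 and 11.30, 11.24 and 11.44 in HTOXAR3. Adding Curcumin to OXA gave a difference of 0.020 ± 0.080 in HT29, where the 2 treated groups overlapped, and of 0.46 ± 0.080 in HTOXAR3 (adjusted p = 0.0109). The same-numbered HTOXAR3 arrays of these 2 treatments shared a slide, and with the replicate as a block that last adjusted p was 0.0511, just short of a call. It was also lost without replicate 1 or 2 of the HTOXAR3 OXA group (adjusted p = 0.0529 and 0.0634) or replicate 3 of the combination (adjusted p = 0.0783).

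TUBB6, the class V beta tubulin, usually scarce in epithelia, rose after OXA and further when Curcumin was added to OXA. Its log2 intensity was 4.72, 4.38 and 4.92 in untreated HT29 and 4.52, 4.68 and 4.71 in untreated HTOXAR3, low signals that were well above background on 2 and 1 of the 3 arrays. After OXA it was 5.92, 5.86 and 6.13 in HT29 and 5.84, 5.37 and 5.43 in HTOXAR3, and after OXA with Curcumin 7.14, 7.18 and 6.88 and 7.12, 7.42 and 7.56. Within each line the 3 treatments did not overlap. The rise after OXA was 1.29 ± 0.16 in HT29 (2.45-fold, adjusted p = 0.000308) and 0.91 ± 0.16 in HTOXAR3 (1.88-fold, adjusted p = 0.0107). Curcumin on top of OXA added 1.10 ± 0.16 in HT29 (adjusted p = 0.00475) and 1.82 ± 0.16 in HTOXAR3 (adjusted p = 4.66e-05). After the combination TUBB6 thus measured 5.26-fold and 6.63-fold above the untreated cells, sizes that rest on the low untreated signals. The untreated lines overlapped (-0.038 ± 0.16). The call after OXA in HTOXAR3 was lost without replicate 1 of HTOXAR3 after OXA (adjusted p = 0.0627) or replicate 1 of untreated HTOXAR3 (adjusted p = 0.0688). It was also lost with corrected intensity scaled to the 75th percentile (adjusted p = 0.0562) and with the replicate as a block (adjusted p = 0.0665). With an offset of 50 in the background correction it was lost too, and the rise was 0.37 (adjusted p = 0.0511) in place of 0.91.

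TUBB2A, a beta tubulin of class II, was higher in untreated HTOXAR3 and rose with OXA in HT29. Its log2 intensity was 12.72, 12.71 and 12.86 in untreated HT29 and 13.67, 13.57 and 13.64 after OXA, a rise of 0.87 ± 0.068 (1.82-fold, adjusted p = 3.88e-06). In HTOXAR3 it was 13.62, 13.63 and 13.65 untreated and 13.56, 13.58 and 13.42 after OXA, a difference of -0.11 ± 0.068 that was not called. Untreated HTOXAR3 thus stood 0.87 ± 0.068 above untreated HT29 (adjusted p = 4.11e-06), at the level of OXA-treated HT29, whose arrays it overlapped. After OXA with Curcumin the lines overlapped, with 14.06, 14.00 and 13.89 in HT29 and 14.01, 13.95 and 14.10 in HTOXAR3. Against untreated cells that was a rise of 1.22 ± 0.068 in HT29 (adjusted p = 1.26e-07) and 0.39 ± 0.068 in HTOXAR3 (adjusted p = 0.00603). A dimmer TUBB2A probe, whose difference after the combination in HTOXAR3 was 0.40 ± 0.095, missed the threshold there (adjusted p = 0.0643).

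TUBB2B, the neighbouring class II gene that is known mainly from the developing brain, had the largest basal difference of the 10. Its log2 intensity was 4.16, 4.17 and 4.55 in untreated HT29, where it was not well above background on any array, and 6.63, 6.58 and 6.57 in untreated HTOXAR3. Against the lowest signal well above background, untreated HTOXAR3 was at least 4.35-fold higher (4.94-fold in the fit, adjusted p = 3.51e-07). The adjusted p-values here belong to the fitted differences, and the bounds themselves were not tested. In HT29 it measured 5.09, 5.16 and 5.37 after OXA, at least 1.66-fold above untreated cells (1.89-fold in the fit, adjusted p = 0.00215). After the combination it measured 4.72, 5.14 and 5.02, at least 1.40-fold above them (1.59-fold in the fit, adjusted p = 0.0246), with 2 of the 3 combination arrays well above background. In HTOXAR3 it measured 7.02, 6.91 and 6.88 after OXA and 5.95, 5.79 and 5.47 after the combination. The difference after OXA was 0.34 ± 0.14 (adjusted p = 1), whereas adding Curcumin to OXA lowered TUBB2B 2.30-fold (adjusted p = 0.000514), below the untreated level (-0.86 ± 0.14, adjusted p = 0.00347). TUBB2B fell and TUBB2A rose in the same HTOXAR3 cells, the latter by 0.50 ± 0.068 (adjusted p = 0.00166). The dimmer TUBB2A probe gave 0.42 ± 0.095 there, which was not called (adjusted p = 0.0765). The rise after the combination in HT29 lost its call without any one of 4 of the 6 arrays (adjusted p from 0.115 without replicate 3 of the combination to 0.156 without its replicate 2, 0.143 and 0.141 without replicates 1 and 2 of the untreated cells), with an offset of 50 in the background correction (adjusted p = 0.146), with corrected intensity scaled to the 75th percentile (adjusted p = 0.08), and with slide as a block (adjusted p = 0.11).

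TUBB and TUBB4B, the beta tubulins made in nearly all dividing cells, decreased in every treatment comparison in which they were called. TUBB4B had a log2 intensity of 14.62, 14.55 and 14.58 in untreated HT29 and 14.73, 14.80 and 14.82 in untreated HTOXAR3. After OXA it was 14.28, 14.26 and 14.03 in HT29 and 14.27, 14.35 and 14.32 in HTOXAR3, a fall by 0.39 ± 0.065 (adjusted p = 0.00423) and by 0.47 ± 0.065 (adjusted p = 0.00147). With Curcumin added it was 14.19, 14.29 and 14.28 and 14.29, 14.33 and 14.33, which overlapped the OXA arrays in both lines. The fall from untreated to combined treatment in HT29, -0.33 ± 0.065 (adjusted p = 0.0148), lost its call with slide as a block and without replicate 1 or 3 of the untreated cells or replicate 1 of the combination (adjusted p 0.0531 to 0.086 without these). TUBB, by its brightest probe, was 14.31, 14.33 and 14.40 in untreated HT29 and 14.92, 14.86 and 14.95 in untreated HTOXAR3, 1.48-fold higher in the resistant line (adjusted p = 2.32e-05). It was 14.41, 14.40 and 14.42 and 14.78, 14.87 and 14.74 after OXA, overlapping the untreated arrays in each line, and 14.09, 14.15 and 14.16 and 14.51, 14.50 and 14.45 after the combination. Against OXA alone the combination decreased it by 0.28 ± 0.052 in HT29 (adjusted p = 0.0282) and by 0.31 ± 0.052 in HTOXAR3 (adjusted p = 0.00867). In HT29 that call was lost without any one of the 6 arrays (adjusted p 0.0705 to 0.152) and with slide as a block (adjusted p = 0.0546). In HTOXAR3 it was lost without replicate 2 of the OXA group (adjusted p = 0.0566) or replicate 3 of the combination (adjusted p = 0.0621).

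The size of the TUBB change, and for some uncalled differences its sign, depended on the probe. Both other TUBB probes lie further downstream, with 557 and 738 bases between the brightest probe and their starts. After the combination they fell by 1.12 ± 0.11 and 1.01 ± 0.10 in HT29 (adjusted p = 3.13e-05 and 3.65e-05) and by 1.02 ± 0.11 and 0.98 ± 0.10 in HTOXAR3 (adjusted p = 8.11e-05 and 5.21e-05). The brightest probe gave -0.21 ± 0.052 in HT29, which was not called (adjusted p = 0.0644), and -0.42 ± 0.052 in HTOXAR3 (adjusted p = 0.000247). Against OXA alone both other probes fell by 0.67 in HT29 (adjusted p = 0.0127 and 0.007) and by 0.82 and 0.81 in HTOXAR3 (adjusted p = 0.00176 and 0.000922), larger falls than those of the brightest probe in both lines. After OXA in HT29 the brightest probe gave 0.065 and the others -0.34 and -0.44 (adjusted p = 0.287 and 0.0923), and the line difference after OXA was -0.18 by the brightest probe and 0.16 and 0.24 by the others, none of them called. Between the untreated lines, in contrast, the 3 probes gave 0.56, 0.55 and 0.57. With the probes averaged the combination response in HT29 was -0.78 (adjusted p = 5.3e-05).

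**Figure D2:**
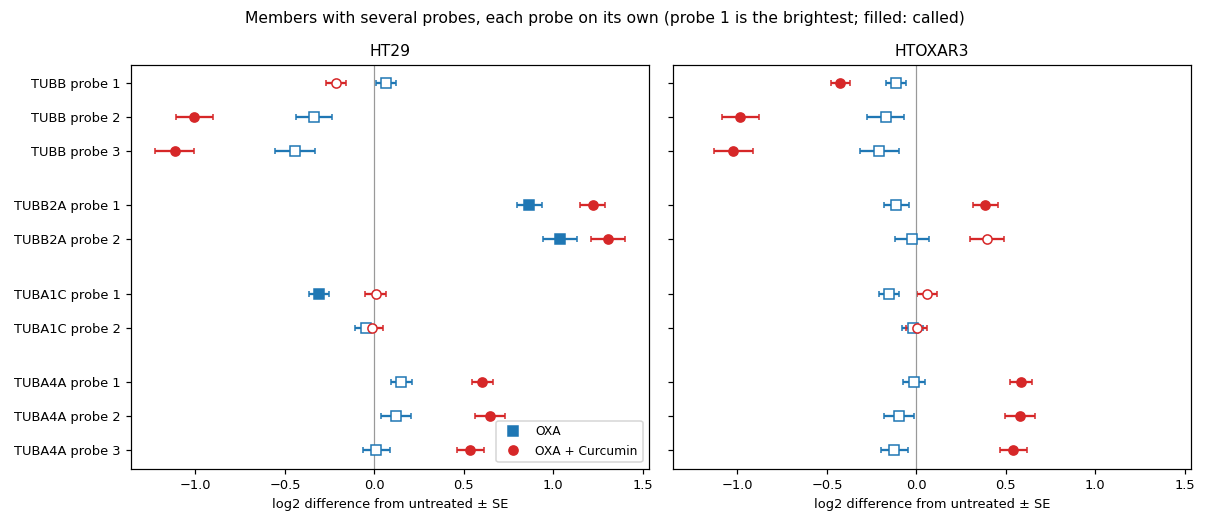
Log2 difference from untreated cells ± SE after OXA (squares) and after OXA with Curcumin (circles) for each probe of the 4 genes with several, in HT29 (left) and HTOXAR3 (right), with filled symbols for called differences. TUBB probes 2 and 3 lie near -1 after the combination in both lines while probe 1 lies at -0.21 and -0.42, whereas the 3 TUBA4A probes lie close together.

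Among the alpha tubulins TUBA4A had the widest range of group means, 1.38 log2 units. It is the alpha tubulin whose gene ends without a codon for the C-terminal tyrosine of the others, so its product starts out detyrosinated. Its log2 intensity was 16.02, 16.01 and 15.99 in untreated HT29 and 15.22, 15.26 and 15.23 in untreated HTOXAR3, where it was 1.70-fold lower (-0.77 ± 0.058, adjusted p = 2.96e-06), the one of the 10 called lower in the resistant line. After OXA it was 16.17, 16.13 and 16.16 in HT29 and 15.24, 15.26 and 15.18 in HTOXAR3, with differences of 0.15 ± 0.058 and -0.012 ± 0.058 that were not called. After the combination it was 16.72, 16.59 and 16.51 and 15.76, 15.82 and 15.88, above every untreated and OXA array of the same line. Adding Curcumin to OXA raised it by 0.45 ± 0.058 in HT29 (adjusted p = 0.00168) and 0.60 ± 0.058 in HTOXAR3 (adjusted p = 0.000101). The other 2 TUBA4A probes gave 0.52 and 0.53 in HT29 and 0.68 and 0.67 in HTOXAR3, all called.

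The other alpha tubulins, TUBA1A, TUBA1B and TUBA1C, which are made widely in proliferating cells, varied less. TUBA1A was 15.16, 15.17 and 15.15 in untreated HT29 and 15.42, 15.42 and 15.51 in untreated HTOXAR3, 1.22-fold higher (adjusted p = 0.0137), and its treated arrays differed from the untreated ones of their line by -0.072 to 0.0058 on average, with no call. That basal call was lost without any one HT29 array (adjusted p 0.0558 to 0.0594) or without replicate 3 of HTOXAR3 (adjusted p = 0.0942), and with scaling to the 75th percentile (adjusted p = 0.0983). TUBA1B lay between -0.14 and 0.12 in the basal difference and the 6 treatment comparisons, with no call. TUBA1C was 17.38, 17.43 and 17.40 in untreated HT29, 17.13, 17.12 and 17.04 after OXA and 17.48, 17.34 and 17.41 after the combination, a fall by 0.31 ± 0.055 (adjusted p = 0.00679) after OXA and a level 0.32 ± 0.055 higher in the combination than with OXA alone (adjusted p = 0.0163). The second call was lost without replicate 2 or 3 of the OXA group or replicate 1 or 3 of the combination (adjusted p 0.0627 to 0.0988). Its second probe gave -0.048 ± 0.058 and 0.036 ± 0.058 in these comparisons, and averaging the 2 probes ended both calls (adjusted p = 0.24 and 0.485 after OXA and on adding Curcumin).

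**Figure D3:**
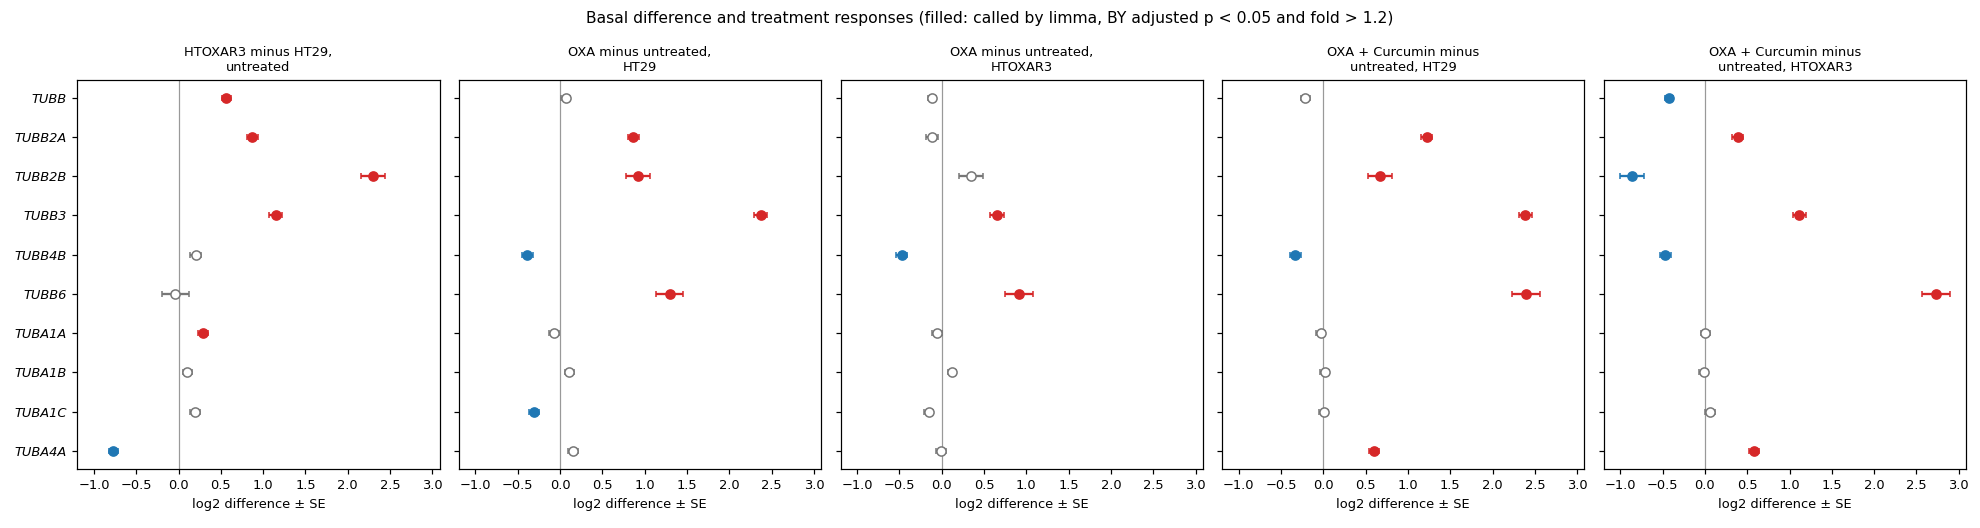
Log2 difference ± SE of each tubulin gene between the untreated lines and after each treatment within each line (18 arrays, 3 per group), with filled points for called differences, red for higher and blue for lower. TUBB3 and TUBB6 are the genes called higher in all 4 treatment panels and TUBB4B the one called lower in all 4.

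Counted over the 10 genes, untreated HTOXAR3 differed from untreated HT29 in 6, with TUBB, TUBB2A, TUBB2B, TUBB3 and TUBA1A higher and TUBA4A lower, where 11.5% of all 36204 gene names were called (6.26% higher, 5.28% lower, at an adjusted p below 0.05 and a fold above 1.2). The median difference over the 10 was 0.25, against -0.028 over all gene names. All 10 were among the 21868 gene names well above background on every array of at least 1 group. The shares over all gene names, here and below, also count the names that are not. Between the same untreated groups the mean log2 level was 12.57 in HT29 and 11.98 in HTOXAR3 over the 12 epithelial markers, 6.75 and 7.08 over the 5 leukocyte markers, 5.84 and 6.02 over the 5 neuronal markers, 6.16 and 6.17 over the 3 endothelial markers and 3.76 and 3.68 over the 6 fibroblast markers. After OXA, 6 of 10 were called in HT29 (4 higher, 2 lower) against 15.9% of gene names (8.33% higher, 7.62% lower), and 3 of 10 in HTOXAR3 (2 higher, 1 lower) against 10.2% (5.31% higher, 4.94% lower). The medians over the 10 were 0.13 and -0.033, against -0.0082 and 0.0085 over all names. After OXA with Curcumin, 6 of 10 were called in HT29 (5 higher, 1 lower) against 18.6% of gene names (9.56% higher, 9.02% lower) and 7 of 10 in HTOXAR3 (4 higher, 3 lower) against 17.5% (8.82% higher, 8.64% lower), with medians of 0.31 and 0.033 against -0.032 and -0.0088. The comparison of OXA with Curcumin against OXA alone called 5 of 10 in HT29 (4 higher, 1 lower), against 5.53% of gene names (3.14% higher, 2.39% lower), and 6 of 10 in HTOXAR3 (4 higher, 2 lower), against 8.83% (4.43% higher, 4.41% lower), with medians of 0.051 and 0.14 against -0.022 and -0.022. Across the 3 treatments the mean level of the epithelial markers ran from 12.36 to 12.57 in HT29 and from 11.74 to 11.98 in HTOXAR3, and that of the leukocyte markers from 6.75 to 6.93 and from 7.08 to 7.37, highest after OXA in both lines. The neuronal markers ran from 5.68 to 5.84 and from 5.73 to 6.02, lowest after the combination in both lines, the endothelial from 6.15 to 6.20 and from 6.16 to 6.42, and the fibroblast from 3.76 to 4.10 and from 3.67 to 3.89. The treatments of a line share their untreated arrays, and the Curcumin comparison shares the OXA and combination arrays with the others. Without any one of the 6 arrays the Curcumin comparison in HT29 called 2 or 3 genes (2 without replicate 2 or 3 of OXA or replicate 1 of the combination). In fits on the compared groups alone, the Curcumin comparison lost every tubulin call in both lines, as did the OXA response in HTOXAR3.

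Whether a response differed between the lines was tested as an interaction, the response in HTOXAR3 minus that in HT29. For OXA 2 of 10 tubulins were called, both negative, against 1.01% of gene names (0.608% positive, 0.398% negative). TUBB3 rose by 1.72 less in HTOXAR3 (-1.72 ± 0.11, adjusted p = 1.06e-05) and TUBB2A gave -0.98 ± 0.10 (adjusted p = 0.000504). For the combination 3 of 10 were called, all negative, against 0.856% of gene names (0.32% positive, 0.536% negative). They were TUBB2B at -1.53 ± 0.20 (adjusted p = 0.00969), TUBB3 at -1.27 ± 0.11 (adjusted p = 0.00055) and TUBB2A at -0.83 ± 0.10 (adjusted p = 0.00418). The TUBB2A call was lost with the replicate as a block (adjusted p = 0.0524), and in fits on the compared groups alone both the TUBB2A and the TUBB2B call were lost (adjusted p = 0.0512 and 0.111). These are the 3 genes with the highest basal difference, and the untreated arrays enter both that difference and the responses. TUBB2B was not well above background in untreated HT29, so its response there is measured from a level that is only a bound. With the lowest signal well above background in its place the difference is at most -1.34. For the addition of Curcumin to OXA limma called 0 of 10, against 0.135% of gene names (0.0276% positive, 0.108% negative). At an unadjusted p under 0.05 there were 3 of 10, beside 9.74% of gene names and 14 of 98 further microtubule genes, with TUBB2B at -0.95 ± 0.20, TUBB6 at 0.72 ± 0.23 and TUBB3 at 0.44 ± 0.11. Benjamini-Hochberg adjustment called 1, TUBB2B, as did an offset of 50 in the background correction.

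**Figure D4:**
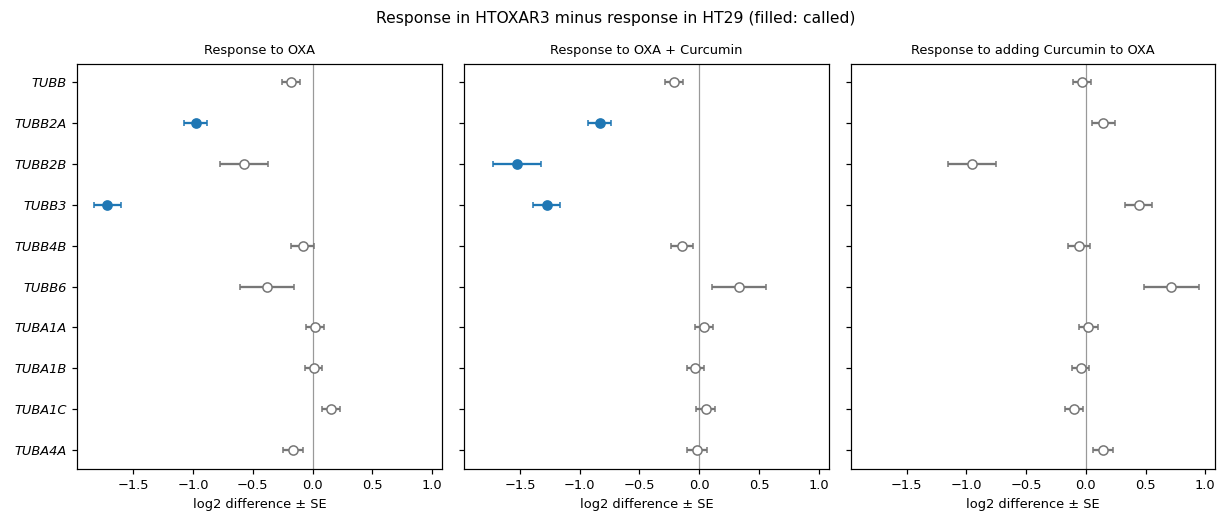
Response in HTOXAR3 minus response in HT29 for each tubulin gene, as a log2 difference ± SE, for OXA, for OXA with Curcumin and for the addition of Curcumin to OXA, with filled points for called differences. The called points, TUBB2A and TUBB3 in the first panel and these with TUBB2B in the second, all lie below 0, between -0.83 and -1.72.

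The 18 arrays were on 3 slides, of which the first held replicate 1 of untreated and OXA-treated HT29 and the others 8 arrays each. Within a slide every one of the 44 called differences kept its direction (94 within-slide values). For TUBB3 the OXA response in HT29 was 2.43, 2.48 and 2.20 within the slides, and in HTOXAR3 0.64 and 0.68. For TUBB6 the response to the combination was 2.78 and 1.96 in HT29 and 2.52 and 2.78 in HTOXAR3. For TUBB2B the addition of Curcumin in HTOXAR3 gave -1.07 and -1.27. The line differences called for OXA were -1.84 and -1.52 for TUBB3 and -0.93 on both slides for TUBB2A, and for the combination the same genes gave -1.40 and -1.01 for TUBB3 and -0.93 and -0.66 for TUBB2A. The uncalled line difference of TUBB6 in the addition of Curcumin was -0.02 on one slide and 1.33 on the other.

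Of 98 further microtubule genes on the array, covering other tubulins, folding factors, modifying enzymes, stabilising and end-binding proteins, destabilising and severing proteins, nucleation and tubulin mRNA decay, 18 were called between the untreated lines (12 higher, 6 lower in HTOXAR3). After OXA 16 were called in HT29 (8 higher, 8 lower) and 10 in HTOXAR3 (6 higher, 4 lower), and after the combination 25 in HT29 (11 higher, 14 lower) and 31 in HTOXAR3 (16 higher, 15 lower). These are 18.4%, 16.3%, 10.2%, 25.5% and 31.6% of the 98, beside 11.5%, 15.9%, 10.2%, 18.6% and 17.5% of all gene names, which include names that are dim in every group. The median difference over the 98 lay between -0.050 and 0.066 in these comparisons. CLIP2, which binds growing microtubule ends, rose by 1.08 in HT29 and 0.80 in HTOXAR3 after OXA, and by 1.66 and 0.95 after the combination. KATNAL1, a severing protein of the katanin family, rose with OXA, by 0.99 and 0.77. TUBE1, the epsilon tubulin of centrioles, decreased by 1.204 in HT29 and 0.38 in HTOXAR3 after OXA, and TUBGCP5, a part of the gamma-tubulin ring complex that nucleates microtubules, by 0.93 and 0.50. All 8 of these OXA changes were called in limma (adjusted p at most 0.0284). TUBE1 was also the one of the 98 called for the line difference in the OXA response (0.82, adjusted p = 0.00653), and CLIP2 the one for the combination (-0.71, adjusted p = 0.00969).

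When Curcumin was added to OXA, 17 of the 98 were called in HT29 (9 higher, 8 lower) and 21 in HTOXAR3 (9 higher, 12 lower), which is 17.3% and 21.4% beside 5.53% and 8.83% of all gene names, with medians of -0.059 and -0.093. MAP1A, which binds along microtubules and is known from neurons, rose by 2.39 ± 0.36 in HT29 (adjusted p = 0.00553) and 3.12 ± 0.36 in HTOXAR3 (adjusted p = 0.000407), and MAPRE2, the end-binding protein EB2, by 0.63 and 0.88. STMN1 (stathmin), which sequesters tubulin dimers, decreased by 0.60 and 0.75, and ARL2, a small GTPase that acts with the tubulin-folding cofactors, by 0.71 and 0.81. VASH2, an enzyme that removes the C-terminal tyrosine of alpha tubulin, decreased by 0.52 and 0.72. KATNAL1, which had risen with OXA, decreased by 0.73 in HT29 (adjusted p = 6.46e-05) and 0.50 in HTOXAR3 (adjusted p = 0.000897), and its differences between the combination and untreated cells, 0.26 and 0.27, were not called. Of TTC5, SCAPER and CNOT11, which carry out the decay of tubulin mRNAs when free tubulin is plentiful, limma called 0 in any of the 10 comparisons, with 10 of the 30 values at an unadjusted p under 0.05, beside 24.2% of the values of all gene names. In 3 of them the adjusted p was below 0.05 and the fold not above 1.2, after OXA for TTC5 in HT29 (-0.21, adjusted p = 0.0467) and HTOXAR3 (-0.24, adjusted p = 0.0258) and for CNOT11 in HT29 (-0.26, adjusted p = 0.0395). Between the untreated lines MAPT (tau, a neuronal microtubule stabiliser) was 1.32 ± 0.17 higher in HTOXAR3 (adjusted p = 0.000416) and TUBA3C, an alpha tubulin known from testis, was lower (-0.75 ± 0.092, adjusted p = 0.000361).

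Over the 18 arrays TUBB3 followed TUBB2A most closely among the tubulins (Pearson r = 0.888), TUBB followed TUBB2B (r = 0.863), and TUBB and TUBA4A ran in opposite directions (r = -0.966). These correlations mix the lines and treatments that the arrays share and are given as a description. Among 17399 gene names compared, the patterns most like TUBB3 were those of CATSPER1 (r = 0.978), TMEM139 (r = 0.977) and AKIRIN1 (r = 0.970), and those most like TUBA4A were MKRN1, SNAPC5 and PSMB1 (r = 0.985, 0.985 and 0.984). For TUBB2A they were LINC00346 (r = 0.947), a transcript with no gene symbol on the array (r = 0.944), and SLC7A7 (r = 0.943).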

How the data were processed

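Total RNA of HT29 and HTOXAR3 cells in 6 groups of 3 biological replicates was labelled with Cy3 and hybridised to 18 one-colour Agilent human arrays, with groups and replicate numbers as the labels give them. Per the file headers, the spots were read with Agilent Feature Extraction 10.7.3.1. The authors deposited for each array the mean intensity of every spot, the median intensity of its local background and a processed intensity, all linear and not normalized between arrays. According to the methods the authors used the limma package, normexp background correction, quantile normalization and Benjamini-Yekutieli adjustment. A deposited table of processed log values, whose rows carry running numbers in place of probe names, was not used.

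In R 4.3.3, mean and background intensities were corrected with normexp (offset 0), control spots were removed, and log2 values were quantile-normalized between arrays with limma 3.58.1. Spots marked as outliers were left out, and each gene name took the probe with the highest mean. No filter on dim probes was applied. Values of single probes beside the brightest come from the same fit over all 50599 probes, with p-values adjusted over these. Models with 6 group terms over all 18 arrays (lmFit, eBayes) tested 10 comparisons, each over 36203 or all 36204 gene names, with p-values adjusted by Benjamini-Yekutieli. A difference was called at an adjusted p below 0.05 and a fold above 1.2. The p-values rest on the spread between replicate arrays, pooled over the 6 groups and drawn toward the spread of all gene names. The number of arrays, 3 per group, limits the precision. The script was tested on simulated data.

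The 10 tubulins and the microtubule and marker lists were chosen with earlier results of these data known. Of the microtubule list genes, those named are among the 3 that rose most or the 3 that fell most in at least 1 comparison. These were taken out of those called whose signal was well above background throughout. Their values in the other line or in further comparisons are given beside, also where not among these 3. TTC5, SCAPER and CNOT11 are named outside this rule. Where all arrays of a group gave a probe no signal well above background, its level is a bound, the mean of the lowest signal well above background on each array or of the probe's own if higher. Alternatives were another offset, scaling to the 75th percentile of corrected or processed intensities, the mean of all probes, a filter on dim probes, Benjamini-Hochberg adjustment, a fold above 2, fits on the compared groups alone, blocks for slide and replicate number, values within slides, and leaving out each array. Replicate numbers were taken to pair the arrays where every same-numbered pair deviated together over all gene names, with r above 0.1. This held for the OXA response in HT29 (r from 0.12 to 0.24 over 3 pairs) and for Curcumin added to OXA in HTOXAR3 (r from 0.11 to 0.19), whose same-numbered arrays lay on 1 slide each. For Curcumin added to OXA in HT29, r ran from 0.0082 to 0.059. For the basal difference the replicate number was a block across both lines, an alternative chosen after seeing the data. Promoter windows came from RefSeq on GRCh38.p14, and probe positions are those of the array annotation on GRCh37. Protein sequences and full transcripts were not analysed here.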

Additional observations from a re-analysis of the deposited data

Results flagged for a closer look

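The responses of 5 gene and treatment pairs differed between the lines in the interaction test. For OXA these were TUBB2A, at -0.98 ± 0.10 (SE, limma adjusted p = 0.000504), and TUBB3, at -1.72 ± 0.11 (adjusted p = 1.06e-05), as the log2 response in HTOXAR3 minus that in HT29. For OXA with Curcumin these were TUBB2A, at -0.83 ± 0.10 (adjusted p = 0.00418), TUBB2B, at -1.53 ± 0.20 (adjusted p = 0.00969), and TUBB3, at -1.27 ± 0.11 (adjusted p = 0.00055). TUBB2B was not well above background in untreated HT29, so -1.53 is no bound, and with the lowest signal well above background in its place the difference is at most -1.34. The TUBB2A call after the combination was lost with the replicate as a block (adjusted p = 0.0524), and in fits on the compared groups alone so were the TUBB2A and TUBB2B calls (adjusted p = 0.0512 and 0.111). Each response was smaller, or of the opposite sign, in the resistant line. The lines were treated with unlike OXA doses, so dose and line cannot be told apart in these differences.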

How the results depend on the processing

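Of the 44 called differences, none changed direction under any alternative or within a slide. The call was kept by 44 with Benjamini-Hochberg adjustment, 44 without dim probes, 42 with an offset of 50, 42 with the processed intensity, 40 with corrected intensity scaled to the 75th percentile, 41 with the mean of all probes, 40 with slide as a block, 38 with the replicate block, 16 in fits on the compared groups alone, where fewer arrays estimate the spread, and 15 at a fold above 2. Leaving out single arrays kept 261 of 294 calls. Scaling to the 75th percentile moved the median of all gene names below 0 by up to 0.19 on the log2 scale (-0.19 for OXA in HTOXAR3 with the processed intensity), and with both such scalings TUBB was called lower after the combination in HT29 (-0.35 and -0.37, adjusted p = 0.00277 and 0.0029). The line difference in the combination response had 37.4% of its calls over all gene names positive, against 47.4% with corrected intensity scaled to the 75th percentile.

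At a fold above 2, the number of the 10 genes called fell from 6 to 2 between the untreated lines, from 6 to 2 and 3 to 0 after OXA in HT29 and HTOXAR3, from 6 to 3 and 7 to 2 after the combination, from 5 to 1 and 6 to 2 for the addition of Curcumin, and from 2 to 1 for the line difference in the OXA response. In fits on the compared groups alone it was 2 and 0 after OXA, 3 and 4 after the combination, 0 and 0 for the addition of Curcumin, and 1 for the line difference in the combination response. For the addition of Curcumin in HT29 the count of 5 became 3 with the mean of all probes, 3 with slide as a block, 2 with the replicate block and 2 to 3 with an array left out. The line difference in the addition of Curcumin went from 0 to 1 with Benjamini-Hochberg adjustment and with an offset of 50. The replicate block also ended the calls of TUBB6 after OXA in HTOXAR3 (adjusted p = 0.0665), of TUBB2A for the line difference in the combination response (0.0524) and of TUBB, TUBB2A and TUBA1C for the addition of Curcumin in HT29 (0.111, 0.167 and 0.0783), where same-numbered arrays did not all deviate together, and the cause was not tested. The TUBB2A call for the addition of Curcumin in HT29 was lost without any of 5 of the 6 arrays (adjusted p 0.0787 to 0.201).

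Of the 56 uncalled differences, 2 became called under an alternative, TUBB after the combination in HT29 (also with the mean of all probes, -0.78) and TUBB2B for the line difference on adding Curcumin. Values within a slide aside, 26 of the 56, all below 0.18 in size, changed sign under one or more alternatives. With corrected intensity scaled to the 75th percentile, the differences of the other sign were those of TUBB6 (0.10) between the untreated lines, TUBA1B (-0.19), TUBA4A (-0.044) and TUBB (-0.049) after OXA in HT29, TUBA1B (-0.092) after OXA in HTOXAR3, TUBA1B (-0.22) and TUBA1C (-0.17) after the combination in HT29, TUBA1A (-0.066) and TUBA1C (-0.066) after the combination in HTOXAR3, TUBA1A (-0.00086) and TUBB3 (-0.016) on adding Curcumin in HT29, TUBB4B (-0.011) on adding Curcumin in HTOXAR3, TUBA4A (0.0098) and TUBB4B (0.012) for the line difference after OXA and TUBA1B (0.035) and TUBA4A (0.10) for the line difference after the combination. With the processed intensity scaled likewise they were TUBA1B (-0.19), TUBA4A (-0.039) and TUBB (-0.055) after OXA in HT29, TUBA1B (-0.11) after OXA in HTOXAR3, TUBA1B (-0.21) and TUBA1C (-0.18) after the combination in HT29, TUBA1A (-0.045) and TUBA1C (-0.042) after the combination in HTOXAR3, TUBA1A (-0.037) and TUBB3 (-0.050) on adding Curcumin in HT29, TUBB4B (-0.0021) on adding Curcumin in HTOXAR3, TUBB4B (0.015) for the line difference after OXA and TUBA1B (0.017), TUBA4A (0.095) and TUBB4B (0.011) for the line difference after the combination. With slide as a block they were TUBA1B (-0.00089) after the combination in HT29 and TUBB3 (-0.019) on adding Curcumin in HT29. With the mean of all probes they were TUBB (-0.24) after OXA in HT29, TUBA1C (-0.0029) after the combination in HT29 and TUBB (0.074) for the line difference after OXA. With single arrays left out, the sign also turned, over the ranges given, for TUBB6 (-0.19 to 0.085) between the untreated lines, TUBA4A (-0.030 to 0.012) after OXA in HTOXAR3, TUBA1C (-0.029 to 0.044) after the combination in HT29, TUBA1A (-0.013 to 0.036) and TUBA1B (-0.028 to 7.8e-05) after the combination in HTOXAR3, TUBA1A (-0.0033 to 0.073), TUBB3 (-0.0081 to 0.042) and TUBB4B (-0.017 to 0.10) on adding Curcumin in HT29, TUBB4B (-0.017 to 0.024) on adding Curcumin in HTOXAR3, TUBA1A (-0.025 to 0.051) and TUBA1B (-0.019 to 0.053) for the line difference after OXA, TUBA4A (-0.067 to 0.038) for the line difference after the combination and TUBA1A (-0.013 to 0.064), TUBB (-0.060 to 0.0077) and TUBB4B (-0.10 to 0.022) for the line difference on adding Curcumin.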
